A study of Drosophila melanogaster with 72 samples.

Results

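Glutathione S-transferases and UDP-glycosyltransferases are 2 families of conjugating enzymes, and their transcripts were followed in whole males that differed in mitochondria and Y chromosome. Members were all genes of the count table whose FlyBase symbol begins with GstD, GstE, GstO, GstS, GstT or GstZ and a number, or with Ugt and a number. A symbol was kept when at least 10 counts were present in at least 12 of the 72 libraries. This left 34 of 35 Gst genes and 21 of 35 Ugt genes, together 55 of the 12470 genes tested and of 17324 features in the table. The rule used overall abundance only, not the haplotype of the fly.

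The flies were adult males of Drosophila melanogaster, 3 to 5 days old, pooled by 10 and extracted whole. Every male carried 1 of 6 mitochondrial haplogroups (B38, B39, I02, N01, N02 and N23) and 1 of 6 Y haplotypes (B11, ZH23, B04, N03, N07 and ZW139) from the Global Diversity Lines, on the shared nuclear background 4361. The haplogroups B38 and B39 are Beijing lines, I02 is from Ithaca and the rest are Dutch. Among the Y haplotypes ZH23 and ZW139 are from Zimbabwe, B11 and B04 are Beijing lines, and N03 and N07 are Dutch. All 36 combinations were made by crossing females of mitochondrial replacement lines with males of Y replacement lines, with 2 libraries per combination from separate crosses, so that each haplotype stood in 12 libraries. Each haplotype was 1 line, and a son took his X chromosome from the mother's line together with her mitochondria, so an X-linked difference between the mothers' lines cannot be told apart from a mitochondrial one. That limit holds for all kept members, of which only GstT3 and GstT4 lie on the X themselves. The autosomes carry the rest and the Y none.

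Glutathione S-transferases join the tripeptide glutathione to electrophiles such as oxidised lipids, plant toxins and insecticides. The delta and epsilon classes (GstD and GstE) are particular to insects and arthropods and are the ones best known from insecticide resistance, while the omega, sigma, theta and zeta classes (GstO, GstS, GstT and GstZ) are shared with vertebrates. UDP-glycosyltransferases pass a sugar from a UDP-sugar to small lipophilic molecules, which makes them easier to excrete, and in the fly they work in the gut, the Malpighian tubules and the fat body as well as in the antenna, where they are thought to clear odorants. Both families act after the cytochrome P450 enzymes in the usual order of detoxification.

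Counts in genes per library ranged from 2454024 to 7671784 with a median of 4792638, and kept Gst members took 0.283% to 0.614% of them, kept Ugt members 0.0256% to 0.0781%. The labels put 54 libraries in batch 1 and 18 in batch 2; the second batch is made up of replicate 2 of the haplogroups N01, N02 and N23. In 6 libraries over 20% of the reads aligned to several places in the genome, against a median of 12.3% over all 72. These were replicate 1 of mtB38_YB04, mtB38_YB11, mtB38_YN03, mtB38_YN07, mtI02_YN03 and mtN23_YB04, so that 4 of the 6 were B38 libraries. The libraries of 1 combination differed far beyond counting noise, with a chi-square divided by its degrees of freedom of 10.8 to 106.

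The kept Gst genes comprised 10 of 11 GstD, all 14 GstE, 3 GstO, 1 GstS, 4 GstT and 2 GstZ genes. GstD6, with no more than 3 counts in any library, was the Gst gene left out. Of the Ugt genes, 14 were left out, and none of these had 10 counts in more than 8 libraries. Just inside the threshold lay GstD4 with 12 libraries at 10 counts or more, Ugt304A1 with 19, Ugt36F1 with 24 and Ugt37C2 with 25; just outside lay Ugt303B2 with 8 and Ugt35E2 with 5. The 12 libraries that carried GstD4 over the threshold spanned 6 haplogroups and 5 Y haplotypes.

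Many members stand side by side in the genome. By the BDGP6.54 annotation, 11 GstD genes lie within 20.8 kb (3R:12364776-12385624) and 10 GstE genes within 13.2 kb (2R:18396638-18409835). The largest Ugt group holds 10 genes, 6 of them kept, within 51.3 kb (3R:11126597-11177910). Smaller groups hold GstO1 to GstO3, the pairs GstZ1 and GstZ2, GstT1 and GstT2, and Ugt49B1 and Ugt49C1, and 3 genes each of Ugt36, Ugt37 and Ugt303B. Genes within such groups resemble each other in sequence, and reads that aligned to several places were not counted in any gene, so levels of close copies are uncertain. No kept member overlapped another gene of the table on its own strand, and 11 of 55 overlapped one on the other strand.

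Levels are given in CPM, counts scaled to the TMM-corrected library size, without a length correction, because 3' tag counts do not grow with transcript length. A pair of genes supplied most of the glutathione S-transferase transcripts. GstD1, the delta enzyme known for breaking down DDT, averaged 1484 ± 241 CPM and GstE12 1402 ± 420 CPM (SD, n = 72), or 30.3% and 28.6% of all Gst reads. GstD9 followed at 471 ± 152 CPM and GstE9 at 395 ± 102 CPM, while the lowest kept members, GstD4 and GstE1, averaged 1.15 and 2.07 CPM. The sigma enzyme GstS1, known from flight muscle, averaged 156 CPM, and GstE14, which works in ecdysteroid synthesis, 5.48 CPM.

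The Ugt transcripts were scarcer and more evenly spread. Ugt35B1, first described from the antenna, averaged 128 ± 33.1 CPM and supplied 24.8% of the Ugt reads, Ugt35C1 supplied 16.6% at 85.9 ± 29.1 CPM and Ugt49B1 12.4% at 64.4 ± 21.2 CPM. The sum over all kept Ugt members ranged from 282 to 738 CPM with a median of 522 CPM, against 3321 to 7076 CPM with a median of 4822 CPM for the kept Gst members.

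**Figure D1:**
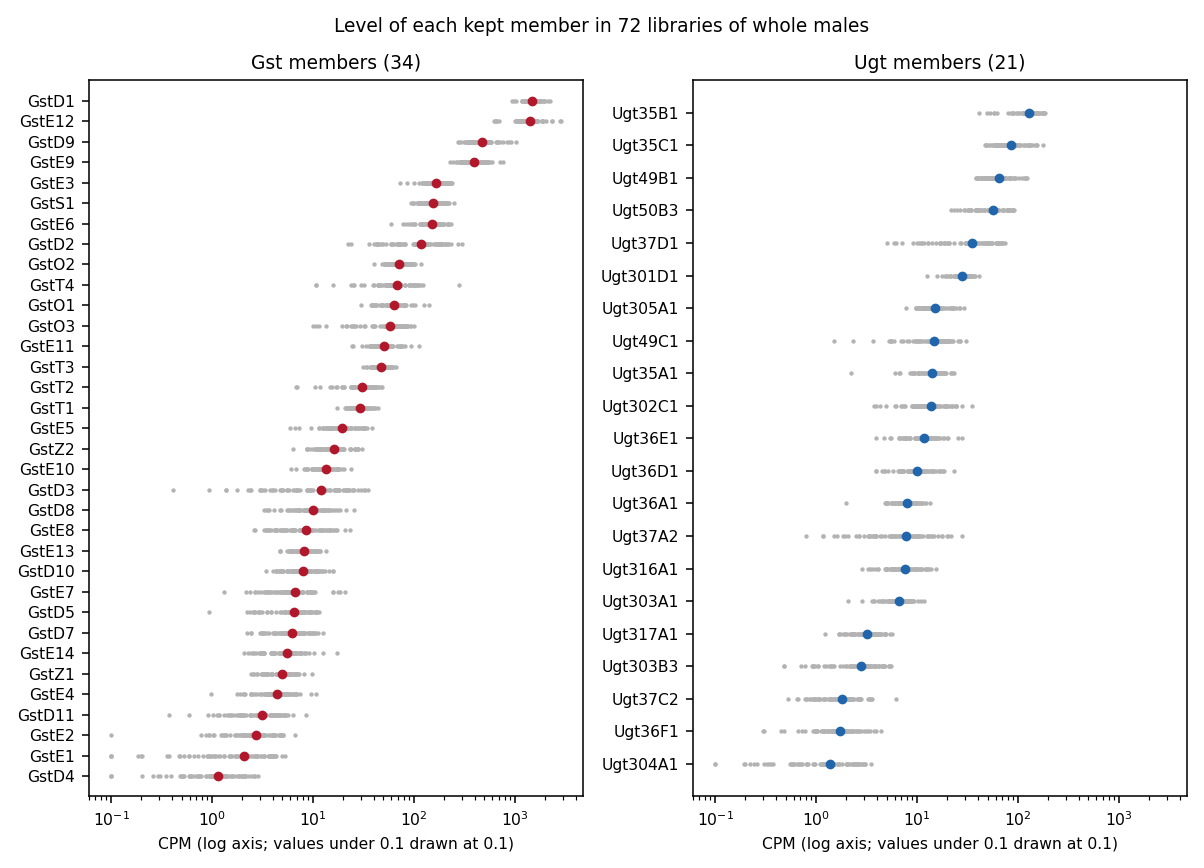
Level of each kept Gst member (left) and Ugt member (right) in CPM on a log axis, with each grey point 1 of 72 libraries and the coloured point the mean. GstD1 and GstE12 have the highest means, 1484 and 1402 CPM, and GstD3, Ugt37A2, GstE1 and Ugt37D1 have the largest SD of log2 CPM.

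The most abundant Gst members and Ugt35B1, the most abundant Ugt member, were not called by edgeR for the Y or the haplogroup. Ugt35C1 and Ugt49B1, next in the Ugt family, were called higher in ZH23 and lower in B38 males, as described below. Ugt49B1 also passed edgeR's F test for the Y. For GstD1 the medians of the Y haplotypes ran from 1363 CPM in ZW139 to 1532 CPM in N03 males, and those of the haplogroups from 1246 CPM in N23 to 1613 CPM in B38 males, with ranges that overlapped throughout. GstE12 had Y medians between 1238 CPM in N03 and 1539 CPM in ZH23 males and haplogroup medians between 1167 CPM in N01 and 1512 CPM in I02 males. GstD9 had Y medians between 375 and 471 CPM and haplogroup medians between 391 and 493 CPM. None of these passed edgeR's F test for the Y or for the haplogroup, and neither did Ugt35B1, with Y medians of 120 to 147 CPM and haplogroup medians of 116 to 146 CPM. With a replicate block in the model, GstE12 and Ugt35B1 passed the haplogroup test (adjusted p = 0.0172 and 0.0339), as did 1639 of all 12470 genes.

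Across the Y haplotypes, 1 of 34 Gst members (GstZ2, adjusted p = 0.0274) and 1 of 21 Ugt members (Ugt49B1, adjusted p = 7.12e-05) passed the quasi-likelihood F test of edgeR at a Benjamini-Hochberg adjusted p under 0.05. Over all genes tested 4.15% passed, so the share of members is near the background. At an unadjusted p under 0.05 there were 13 Gst and 4 Ugt members, against 19.9% of all genes. In whole flies, fewer cells of a type and less RNA per cell cannot be told apart, here and in all that follows.

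Across the haplogroups 0 members passed the same test by edgeR, where 2.04% of all genes did. At an unadjusted p under 0.05 it was 5 Gst and 7 Ugt members, against 15.9% of all genes. With DESeq2, GstT1, Ugt35C1 and Ugt37A2 passed (adjusted p = 0.0317, 0.0133 and 0.00992), where 652 of 12470 genes did. With limma-voom 0 members passed, and 189 of all genes. The interaction of haplogroup and Y was called for 0 members and for 0% of all genes by edgeR. Unadjusted, GstD3, GstD4, GstE7, GstE8 and GstE14 had p under 0.05 and 0 Ugt members did, against 1.92% of all genes, and with DESeq2 and limma-voom 0 members were called.

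Each haplotype was then set against the mean of the other 5, with p-values adjusted within each contrast and not across the 12. Members were called in 3 of the 12 contrasts: in B11 and ZH23 among the Y haplotypes, where all calls were higher, and in B38 among the haplogroups, where all were lower. In the other 9 contrasts edgeR and limma-voom called 0 members, where edgeR called 0.962% of all genes in at least 1; at an unadjusted p under 0.05 in at least 1 it was 25 Gst and 13 Ugt members, against 55.4% of all genes. DESeq2 called 2 Gst and 2 Ugt members there. Over all genes its largest counts in these 9 contrasts were 78 higher (I02) and 82 lower (N03). At an unadjusted p under 0.05, 8 Gst and 8 Ugt members were lower in B04 males, against 9.43% of all genes.

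**Figure D2:**
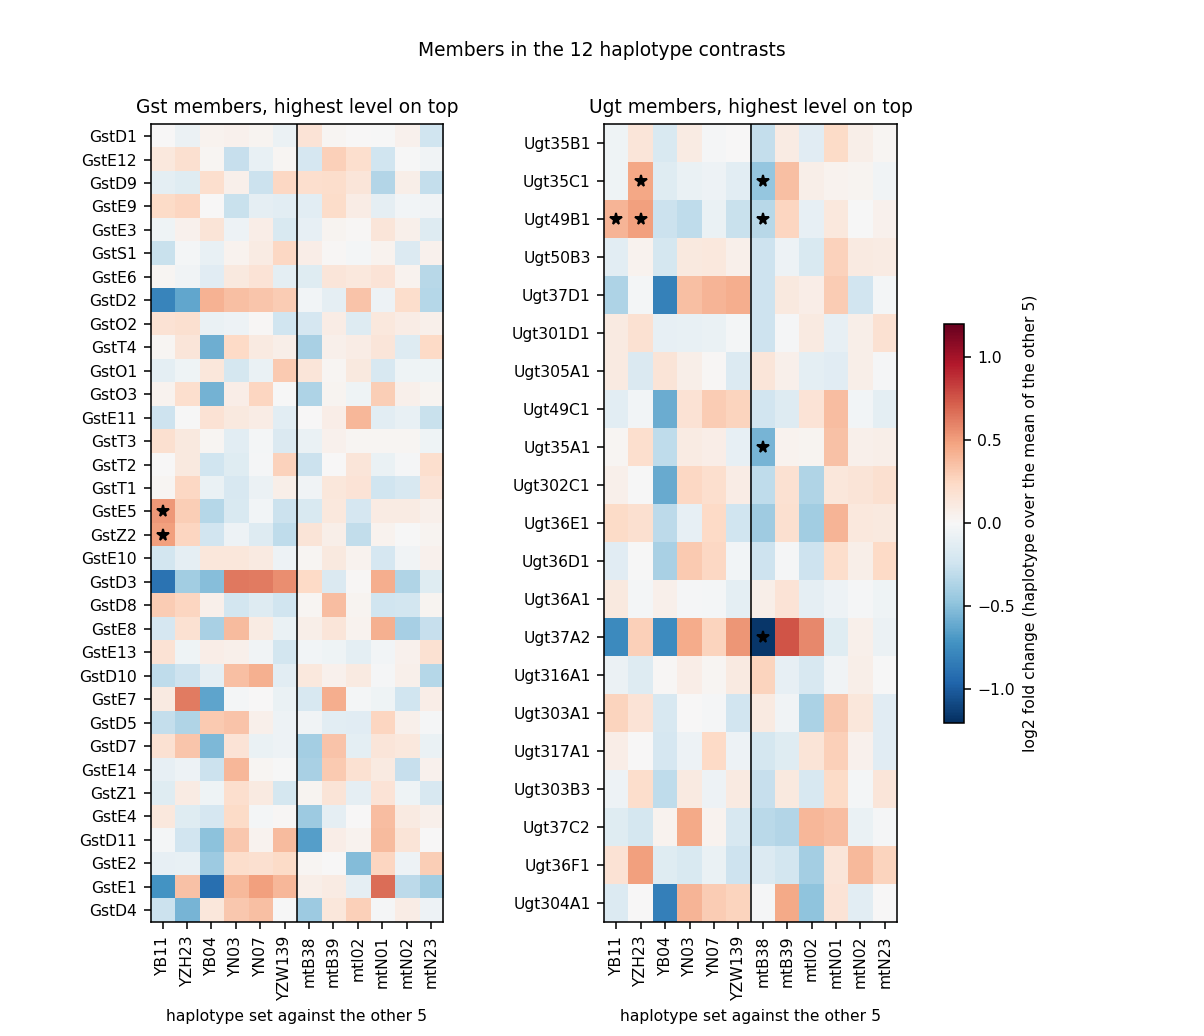
Log2 fold change of each kept member in the 12 contrasts, each haplotype against the mean of the other 5, with Y haplotypes left of the line and haplogroups right of it; stars mark an adjusted p under 0.05. The starred cells number 3 in B11, 2 in ZH23 and 4 in B38, and the B04 column is mostly blue in the Ugt panel.

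Ugt49B1 was the member most clearly tied to the Y haplotype. It lies at 2R:21212880-21214972, and together with its neighbour Ugt49C1 it spans 4.9 kb. In ZH23 males it had a lowest, median and highest level of 44.4, 81.1 and 120 CPM, against 38.2, 55.4 and 122 CPM in the 60 libraries of the other Y haplotypes. In B11 males the same values were 44.5, 78.4 and 116 CPM, against 38.2, 55.4 and 122 CPM in the 60 libraries of the other Y haplotypes. The ranges overlapped, but 11 of 12 ZH23 libraries and 11 of 12 B11 libraries lay above the median of the others. The 4 other Y haplotypes had medians of 52.8 (B04), 51.6 (N03), 54.6 (N07) and 54.02 CPM (ZW139), which differed by less than the spread among libraries.

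The log2 difference of Ugt49B1 was 0.50 ± 0.09 (SE) in ZH23 (adjusted p = 0.00114) and 0.40 ± 0.09 in B11 (adjusted p = 0.00784). Of all genes, 1.16% were higher and 0.192% lower in ZH23, and 1.95% were higher and 0.513% lower in B11. The ZH23 call held in all 11 alternative settings and without any single library, with an adjusted p of at most 0.0413. The B11 call was lost without mtB38_YB11 replicate 2 (0.0656) or mtI02_YB11 replicate 2 (0.0512), and in batch 1 alone (0.372). The fit of batch 1 alone also left out the interaction. The Y haplotype accounted for 38.2% of the variance of its log2 CPM, the largest such share among the kept members, whose medians were 11.4% for Gst and 9.76% for Ugt, against 8.99% for all genes tested.

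Within haplogroups the mean of the 2 ZH23 libraries was above that of the other 10 in 6 of 6, from 0.15 in N01 to 1.16 in B38 on the log2 scale. For B11 it was above in 6 of 6 as well, from 0.07 in B38 to 0.78 in N01. Within batch 1 the ZH23 mean was 92.4 ± 18.3 CPM (n = 9), against 62.4 ± 19.6 CPM in the other 45 libraries; within batch 2 it was 60.4 ± 15.4 CPM (n = 3), against 54.6 ± 15.0 CPM in the other 15. Within batch 1 the B11 mean was 80.0 ± 23.1 CPM (n = 9), against 64.9 ± 21.5 CPM in the other 45 libraries. Within batch 2 it was 79.9 ± 8.32 CPM (n = 3), against 50.7 ± 10.1 CPM in the other 15.

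The 3' end of Ugt49B1 shares 90 bases with that of CG44245 on the other strand, and whether the counting used strand is not given in the sources used here. CG44245 itself differed by -0.02 ± 0.07 in ZH23 and by -0.13 ± 0.07 in B11 on the log2 scale (adjusted p = 0.979 and 0.450). Summed markers of the eye, fat body and accessory gland had higher medians in B11 and ZH23 males than in the other 4. All 6 eye markers (ninaE, Arr1, Arr2, trp, ninaC and norpA) passed the F test for the Y. In the contrasts 6 were called higher in B11 and 0 in ZH23. Their summed level had medians of 3550 CPM in B11 (1429 to 5350) and 3014 CPM in ZH23 males (1454 to 4595). The other 4 Y haplotypes had medians of 1608 to 1885 CPM. The fat body sum had medians of 2281 CPM in B11 and 2431 CPM in ZH23, against 1496 to 1921 CPM. For the accessory gland these were 5327 and 5063 CPM, against 4319 to 4516 CPM. Over the 72 libraries the log2 level of Ugt49B1 and that of the eye markers correlated at r = 0.636, with 0.555 in batch 1 and 0.854 in batch 2. The eye markers correlated with GstZ2 at r = 0.474, with GstE5 at 0.384 and with Ugt35C1 at 0.365, the other members called in B11 or ZH23. The part of these organ markers in the results was not tested.

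Ugt35C1, at the edge of the largest Ugt group (3R:11126597-11128328), was higher in ZH23 males. Its lowest, median and highest levels were 67.9, 97.8 and 177 CPM in ZH23 males, against 47.2, 73.3 and 150 CPM in the other 60 libraries. The groups overlapped, with 10 of 12 ZH23 libraries above the median of the others, and the other 5 Y haplotypes had medians between 70.5 and 79.5 CPM. The log2 difference was 0.47 ± 0.11 (adjusted p = 0.0170), while the F test over all Y haplotypes gave an adjusted p of 0.106. The call was lost without replicate 1 of mtB38_YZH23 (0.167), mtB39_YZH23 (0.0809), mtN01_YZH23 (0.216) or mtN23_YZH23 (0.0763), without mtN02_YZH23 replicate 2 (0.106), and with no batch term (0.0520). Within batch 1 the ZH23 mean was 122 ± 37.9 CPM (n = 9), against 86.4 ± 25.2 CPM in the other 45 libraries, and within batch 2 it was 77.8 ± 10.9 CPM (n = 3), against 64.1 ± 9.20 CPM in the other 15.

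Of the Gst genes, GstZ2 and GstE5 were higher in B11 males. GstZ2 (3R:9456815-9460652) belongs to the zeta class, whose enzymes isomerise maleylacetoacetate in the breakdown of tyrosine and phenylalanine. Its levels in B11 males were 14.6, 20.1 and 27.9 CPM (lowest, median, highest), against 6.37, 14.2 and 30.4 CPM in the other 60 libraries. All 12 B11 libraries lay above the median of the others, though within their range, and ZH23 males had the next highest median with 16.4 CPM. The log2 difference was 0.50 ± 0.12 (adjusted p = 0.0143). Its partner GstZ1, with 4.92 CPM on average, was not called.

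The GstZ2 call was lost without any of 6 single B11 libraries. In the contrast these were replicate 2 of mtB38_YB11 (adjusted p = 0.108), mtB39_YB11 (0.0777), mtI02_YB11 (0.111), mtN02_YB11 (0.0686) and mtN23_YB11 (0.0572), and replicate 1 of mtN01_YB11 (0.0622). In the F test the same 6 removals gave adjusted p of 0.0559 to 0.0754. In the additive fit of batch 1 alone the adjusted p was 0.279 for the contrast and 0.169 for the F test. The mean was 21.2 ± 5.59 CPM in B11 males of batch 1 (n = 9), against 15.7 ± 5.08 CPM in the other 45 libraries, and 19.9 ± 3.35 CPM in those of batch 2 (n = 3), against 13.5 ± 3.04 CPM in the other 15. Within haplogroups the B11 mean was above that of the other Y haplotypes in 6 of 6, by 0.25 to 0.70 on the log2 scale.

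GstE5 (2R:18404605-18405338) lies in the middle of the epsilon cluster. Its levels in B11 males were 9.48, 27.0 and 34.4 CPM (lowest, median, highest), against 5.87, 17.6 and 38.8 CPM in the other 60 libraries. With 10 of 12 B11 libraries above the median of the others the groups again overlapped, and ZH23 males had a median of 24.7 CPM, while the other 4 Y haplotypes had medians of 15.1 to 18.4 CPM. The log2 difference in B11 was 0.52 ± 0.14 (adjusted p = 0.0335), and the F test over all Y haplotypes gave 0.0538. In ZH23 the difference was 0.29 ± 0.14 (adjusted p = 0.480). Within haplogroups the B11 mean was above that of the other Y haplotypes in 5 of 6, the exception being B38 with 17.7 CPM in B11 males, against 17.8 CPM.

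The GstE5 call was lost without any of 8 single libraries. These were replicate 2 of mtB38_YB11 (adjusted p = 0.237), mtB39_YB11 (0.0999), mtI02_YB11 (0.205), mtN01_YB11 (0.0943), mtN02_YB11 (0.115) and mtN23_YB11 (0.0908), and replicate 1 of mtN01_YB11 (0.0521) and mtN23_YB11 (0.050004). In the additive fit of batch 1 alone the adjusted p was 0.569. The mean was 23.9 ± 7.18 CPM in B11 males of batch 1 (n = 9), against 18.2 ± 6.87 CPM in the other 45 libraries, and 31.2 ± 3.13 CPM in those of batch 2 (n = 3), against 18.2 ± 3.21 CPM in the other 15.

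**Figure D3:**
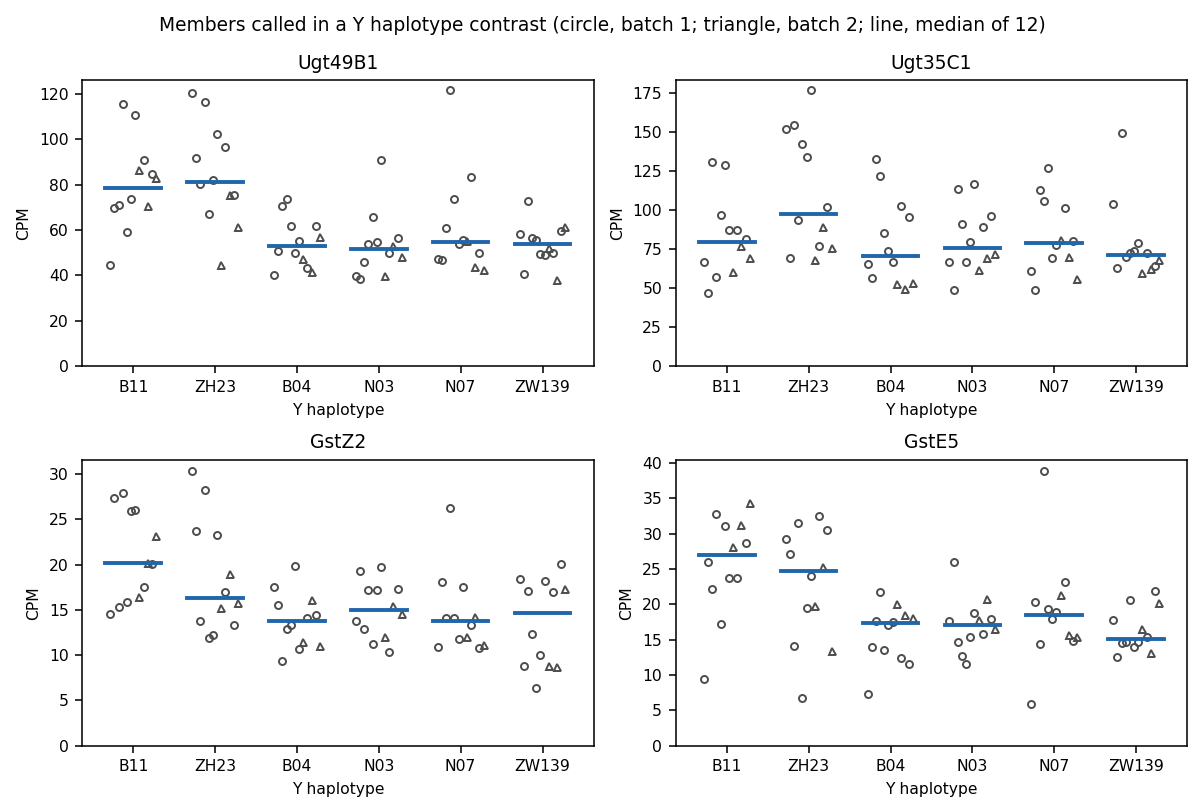
Level in CPM of the 4 members called in a Y haplotype contrast, by Y haplotype (12 libraries each; circles batch 1, triangles batch 2, bar the median). Ugt49B1 has medians of 78.4 CPM in B11 and 81.1 CPM in ZH23, with every other Y haplotype below 55 CPM, and GstZ2 has all B11 points above 14 CPM.

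Among the haplogroups, 4 Ugt members and 0 Gst members were lower in B38 males, where 2.88% of all genes were lower and 6.85% higher. None of the 4 had passed edgeR's haplogroup F test. Ugt35A1 had 2.24, 10.97 and 18.4 CPM (lowest, median, highest) in B38 males, against 6.77, 14.7 and 23.2 CPM in the other 60 libraries. Ugt35C1 had 47.2, 64.2 and 152 CPM in B38 males, against 49.4, 79.9 and 177 CPM in the other 60 libraries. The B38 libraries were low in both but overlapped the others: 11 of 12 lay below the median of the others for Ugt35A1 and 10 of 12 for Ugt35C1.

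Ugt37A2 (3R:12739642-12741417), which had the largest SD of log2 CPM among the kept Ugt members, had 0.788, 2.80 and 13.7 CPM in B38 males, against 1.17, 7.37 and 28.0 CPM in the other 60 libraries. Ugt49B1 had 38.4, 47.1 and 120 CPM in B38 males, against 38.2, 60.4 and 122 CPM in the other 60 libraries. Again the ranges overlapped, with 11 of 12 and 9 of 12 B38 libraries below the median of the others. The log2 differences were -0.56 ± 0.15 for Ugt35A1, -0.47 ± 0.12 for Ugt35C1, -1.17 ± 0.33 for Ugt37A2 and -0.33 ± 0.10 for Ugt49B1 (adjusted p = 0.0120, 0.0136, 0.0205 and 0.0311).

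None of the 4 was called without the 6 libraries named above, 4 of which were B38. The B38 calls over all genes fell from 854 higher and 359 lower to 29 and 21 in that fit. The adjusted p was then 0.171 for Ugt35A1, 0.0703 for Ugt35C1, 0.172 for Ugt37A2 and 0.371 for Ugt49B1, while the log2 differences were -0.58, -0.60, -1.39 and -0.28. In the additive model without them the adjusted p was 0.136, 0.133, 0.240 and 0.557 in the same order, and the log2 differences were -0.53, -0.45, -0.89 and -0.19. In those 4 B38 libraries Ugt35C1 had 61.1 to 67.1 CPM, against 47.2 to 152 CPM in the 8 other B38 libraries, and Ugt37A2 had 1.51 to 3.80 CPM, against 0.788 to 13.7 CPM. Ugt49B1 had 39.6 to 47.5 CPM there, against 38.4 to 120 CPM in the 8 other B38 libraries. All B38 libraries were of batch 1, and in the additive fit of batch 1 alone Ugt49B1 was also not called (0.0562).

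Single libraries ended some of these calls too. Ugt35A1 was not called without mtB38_YB11 replicate 1 (adjusted p = 0.0790). Ugt37A2 was not called without replicate 1 of mtB38_YB04 (0.0533), mtB38_YB11 (0.0685) or mtB38_YN03 (0.0638) or without mtB38_YZW139 replicate 2 (0.0561), nor by limma-voom (0.0555). Ugt49B1 was not called without replicate 1 of mtB38_YB04 (0.111), mtB38_YB11 (0.163), mtB38_YN03 (0.0777) or mtB38_YN07 (0.0755) or replicate 2 of mtB38_YZH23 (0.0780) or mtB38_YZW139 (0.105), nor with no batch term (0.149). Ugt35C1 was called without any single library but not with no batch term (0.0992).

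The values were also compared within each Y haplotype. With the ZH23 Y, the B38 males had 106 CPM of Ugt49B1 on average, against 80.1 CPM in the 10 other libraries with that Y, and 111 CPM of Ugt35C1 in both. With the other 5 Y haplotypes the B38 mean of Ugt49B1 was below that of the other haplogroups in 5 of 5, with log2 differences of -0.57 to -0.14. That of Ugt35C1 was below in 4 of 5; with the ZW139 Y it was 83.5 CPM in B38 males, against 77.2 CPM in the 10 other libraries. Ugt35A1 was below in 5 of 6 Y haplotypes, the exception being ZH23 with 15.6 CPM in B38 males, against 15.4 CPM, and Ugt37A2 in 6 of 6. The interaction was not called for any of the 4 genes.

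Over the whole Ugt family, 17 of 21 kept members had a log2 difference below 0 in B38 males, with a median of -0.25. All genes tested had a median of 0.01, with 51.2% above 0. The Gst members had 20 of 34 below 0 and a median of -0.04. In B04 males 17 of 21 Ugt members were below 0 as well. The summed Ugt level had a median of 406 CPM in B38 males (282 to 683), against medians of 504 to 556 CPM in the other 5 haplogroups. Without the 6 libraries the Ugt median was -0.16 with 15 of 21 below 0, and in the additive model without them -0.11 with 14 of 21 below 0. The Gst median turned to 0.0027 with 17 of 34 below 0 and to 0.05 with 14 of 34 below 0 in those fits. Of the marker lists, 4 of 6 accessory gland markers (Acp36DE, SP, Acp33A and Acp62F), 2 of 9 antennal markers (Obp28a and Obp19d) and 1 of 12 Malpighian tubule markers (salt) were also lower in B38 males. The summed accessory gland level had a median of 4026 CPM in B38 males (3029 to 5177), against medians of 4524 to 4926 CPM in the other 5, and the summed antennal level 682 CPM (387 to 925), against 737 to 858 CPM. In the other direction, 2 of 10 midgut markers (Jon25Bi and Jon99Cii) and 2 of 4 female markers (Yp1 and Cp38) were higher in B38 males. The summed midgut level had a median of 19396 CPM in B38 males (14181 to 35322), below those of I02 (21726 CPM) and B39 males (19893 CPM). N01, N02 and N23 males had medians of 15258 to 17487 CPM. The summed female level had a median of 11.1 CPM in B38 males (5.31 to 27.2), against medians of 4.98 to 8.31 CPM in the other 5. The part of these markers in the result was not tested.

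**Figure D4:**
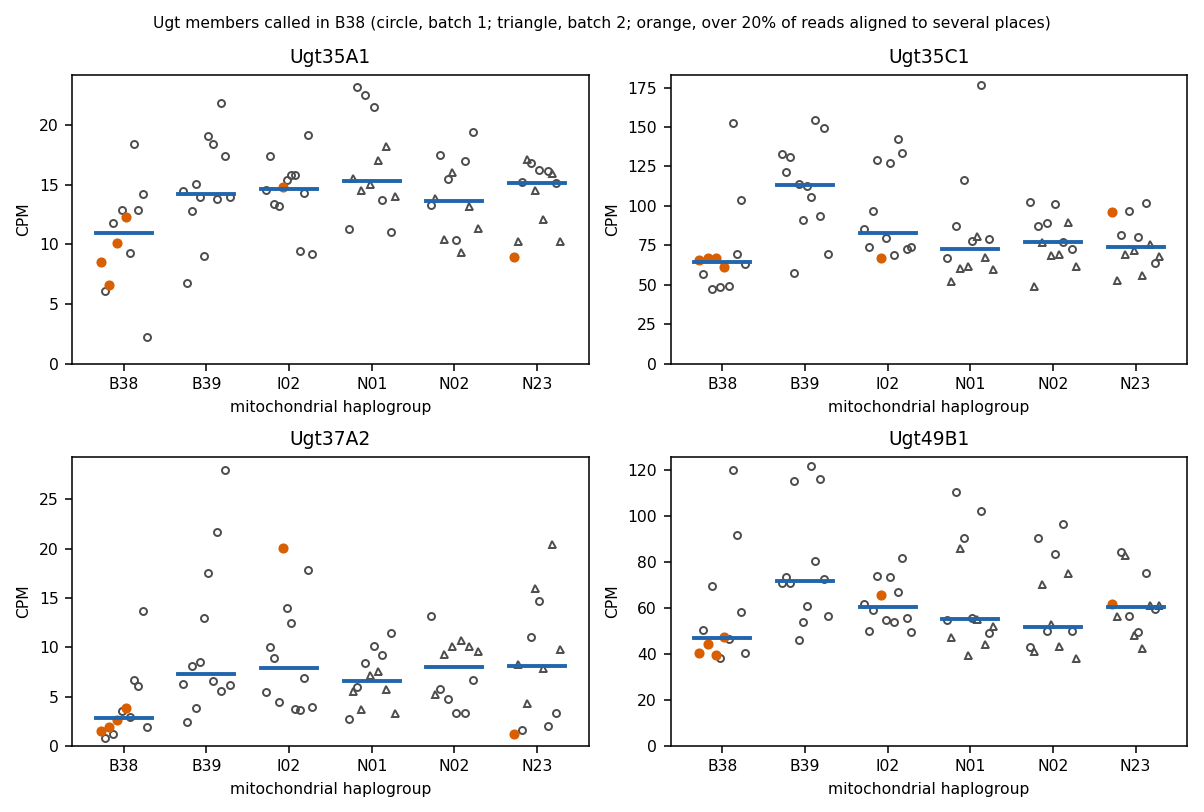
Level in CPM of the 4 Ugt members called lower in B38, by mitochondrial haplogroup (12 libraries each; circles batch 1, triangles batch 2, bar the median, orange the 6 libraries in which multiple alignment exceeded 20%). B38 has the lowest median for each, and its 4 orange points lie below the medians of the other 5 haplogroups.

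Apart from Ugt37A2, the members that varied most on the log2 scale (GstD3, GstE1, Ugt37D1 and GstD2) were not called by edgeR. GstD3 ranged from 0.410 to 34.9 CPM over the 72 libraries. Its medians were 5.72 CPM in B11, 7.56 CPM in ZH23, 6.30 CPM in B04, 17.0 CPM in N03, 14.4 CPM in N07 and 15.5 CPM in ZW139 males. The ranges of all 6 overlapped, with 0.410 to 34.9 CPM in B04 alone, and the F test for the Y gave an adjusted p of 0.0584. GstD3 passed that test with DESeq2 (0.0235), with no filter on low counts (0.0384) and with a replicate block (0.0356).

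GstD2, its neighbour in the delta cluster (3R:12371971-12372704), also had low medians in B11 and ZH23 males, but not in B04 males. B11 males had 36.3, 64.5 and 130 CPM (lowest, median, highest) and ZH23 males 40.0, 69.0 and 178 CPM, against medians of 151 (B04), 135 (N03), 150 (N07) and 141 CPM (ZW139). In B11 the log2 difference was -0.79 ± 0.24 (adjusted p = 0.0706), and the F test gave 0.0520. GstD2 passed the F test in 6 of 11 alternatives, among them DESeq2 (0.00819) and the fit without the 6 libraries (0.00389). GstD2 was below the threshold in B11 with DESeq2 (0.0177), in the additive model (0.0453), with a replicate block (0.0267) and without the 6 libraries (0.0219). It was not below it in the additive fit of batch 1 alone (0.660).

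GstE1, an epsilon gene, had a median of 0.744 CPM in B04 and 1.02 CPM in B11 males, against 2.05 to 2.68 CPM in the other 4 (adjusted p = 0.226). Ugt37D1 (2L:16799025-16801584) had a median of 18.9 CPM in B04 males (5.07 to 55.3), against 31.7 to 45.9 CPM in the other 5. Its log2 difference in B04 was -0.81 ± 0.26, with an adjusted p of 0.119 by edgeR and 0.0495 by DESeq2, which also called it for the Y as a whole (0.0433). Ugt304A1, with 0.606 CPM as its median in B04 males and 1.03 to 1.65 CPM in the other 5, was not called. In B04 the Ugt members had a median log2 difference of -0.22 with 17 of 21 below 0. All genes had a median of 0.02, with 53.7% above 0.

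Between the 2 libraries of a combination GstD3 differed by a median of 0.86 and up to 3.18 on the log2 scale, and GstD2 by a median of 0.61 and up to 2.98. GstD1 differed by a median of 0.20 and up to 0.58. For the median Gst member the Y haplotype took 11.4% of the variance and the haplogroup 6.98%, with 41.8% left between the libraries of a combination. For the median Ugt member these shares were 9.76%, 10.8%, 22.2% and 44.5%, against 8.99%, 7.38%, 25.2% and 45.0% for all genes. GstT1 had the largest haplogroup share of all kept members, 25.6%, and Ugt50B3, with 43.2%, the largest batch share.

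Several members of both families varied together over the libraries, as a description of these 72 libraries, which share haplotypes, batches and crosses. Ugt49C1 and the omega gene GstO3 correlated at r = 0.866 (0.815 without the 6 libraries), GstE1 and Ugt37D1 at 0.850, Ugt49C1 and Ugt37D1 at 0.846, and GstD3 and Ugt37D1 at 0.821. In batch 1 these pairs had r = 0.873, 0.861, 0.856 and 0.827 in the same order. In batch 2 they had r = 0.458, 0.699, 0.429 and 0.833. The 2 abundant epsilon genes GstE12 and GstE9, on different parts of arm 2R, correlated at 0.830. Ugt37D1 had 9 partners with r over 0.7, GstT4 and GstO3 8 each and GstD3 6. The differences between the 2 libraries of a combination gave 0.852 for Ugt49C1 and GstO3 and 0.846 for GstE1 and Ugt37D1. These differences compare libraries of the same haplotypes, but in N01, N02 and N23 libraries of different batches. All 6 libraries of high multiple alignment were replicate 1.

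Correlations between neighbours in a cluster spanned a wide range. The median r was 0.16 among 45 pairs of the GstD cluster, 0.18 among 45 pairs of the GstE cluster and 0.21 among 15 pairs of the largest Ugt group. Over all pairs it was 0.08 within Gst (561 pairs), 0.20 within Ugt (210 pairs) and 0.11 between the families (714 pairs). At the other end, GstS1 and the X-linked GstT3 had r = -0.74 and GstD3 and GstE9 r = -0.71. Ugt49B1 and Ugt49C1, side by side, had r = 0.06.

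**Figure D5:**
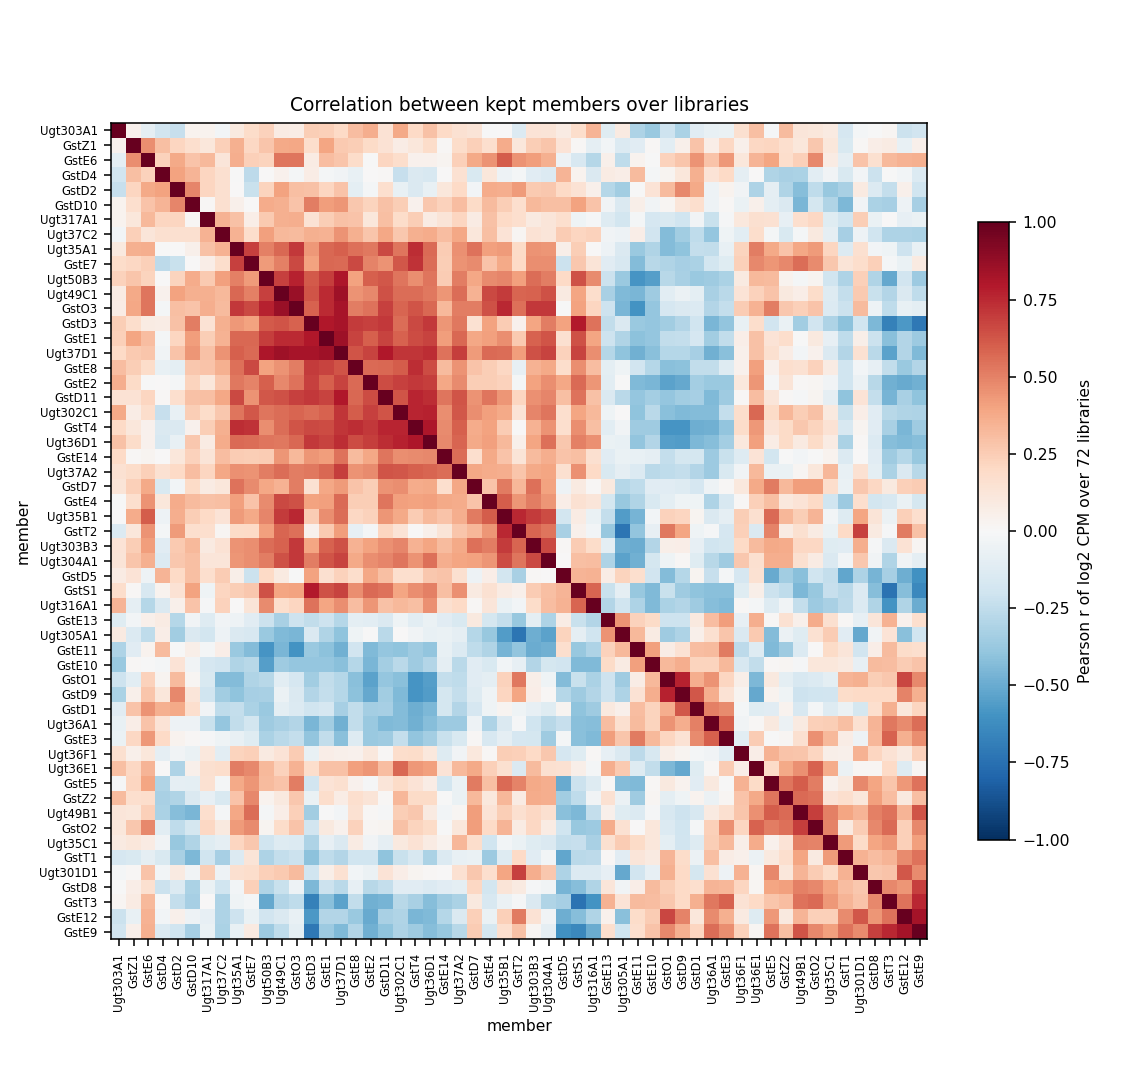
Pearson correlation of log2 CPM between all pairs of the 55 kept members over 72 libraries, ordered by average-linkage clustering. A block around Ugt37D1, Ugt49C1, GstO3, GstE1, GstD3 and GstT4 stands out in red, and a second group around GstE12, GstE9 and GstT3 runs against it in blue.

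Members also ran with markers of organs and with the share of reads aligned to several places, whose part was not tested. Ugt37D1 had r = -0.73 with testis markers, GstD3 r = -0.63 and GstE9 r = 0.69 with eye markers, and Ugt35B1 r = 0.68 with antennal markers. With the percentage of reads aligned to several places, GstT2 had r = -0.85, Ugt35B1 r = -0.76 and GstE6 r = -0.68. GstT2 had 6.81 to 20.3 CPM in the 6 libraries over 20%, against 15.6 to 48.3 CPM in the other 66. Without those 6 the r of GstT2 was -0.63, and in batch 2 it was 0.14.

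Genes around the 2 families in the same pathways were taken from lists. Of 12 cytochrome P450 genes known for responses to xenobiotics, 8 passed the F test for the Y and 2 (Cyp6a2 and Cyp6w1) that for the haplogroup. In ZH23 males 7 and in B11 males 4 of the 12 were higher, with list medians of 0.57 and 0.56 against -0.03 and -0.01 for all genes. Cyp6g1, known from DDT resistance, was higher by 1.15 ± 0.16 in B11 (adjusted p = 1.14e-05) and by 0.95 ± 0.17 in ZH23 (0.000598). Cyp6a8 was higher by 1.98 ± 0.33 in B11 (0.000128) and by 1.62 ± 0.35 in ZH23 (0.00702). Cyp6a2 was higher by 2.78 ± 0.43 in ZH23 (0.000102), by 1.70 ± 0.45 in B11 (0.0264) and by 3.28 ± 0.38 in B38 (6.48e-07). Cyp6w1 differed by -0.54 ± 0.13 in B38 (0.00657).

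The lists nearer to the 2 families held fewer calls. The sepia gene, se, an omega glutathione transferase with another symbol that makes the precursor of red eye pigment, passed the F test for the Y (adjusted p = 4.99e-05) and was higher by 1.46 ± 0.24 in B11 and by 0.99 ± 0.25 in ZH23 (0.000118 and 0.0284). It overlaps GstO2 on the other strand, and GstO2 itself was not called (0.151). The other 4 genes with a glutathione transferase fold that were tested did not pass the Y test. Of 5 export transporters only Mdr50 passed the Y test (0.000135), with 1.76 ± 0.29 in B11, and of 6 antioxidant enzymes only the mitochondrial peroxiredoxin Prx3 (0.0435).

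In glutathione synthesis, Gclc and Gclm, the subunits of the rate-limiting ligase, were the 2 of 4 genes tested and passed neither F test. Gclm was lower in B38 males, with a log2 difference of -0.34 ± 0.08 (adjusted p = 0.00878). Of 6 regulators, including cnc and Keap1 that control the oxidative stress response, 0 passed the Y test and Hr96, a nuclear receptor for xenobiotics, passed the haplogroup test (0.0221). Hr96 and ss were higher in B38 males, by 0.37 ± 0.09 and 0.62 ± 0.17 (0.00731 and 0.0156). Both genes of UDP-sugar supply (UGP and sgl) and all 3 sulfotransferases tested passed neither F test, and sgl was higher in B38 males by 0.38 ± 0.12 (0.0366).

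Of the 9 lists of organ markers, the eye list had 6 of 6 members called for the Y. Fat body had 2 of 6 (apolpp and FASN1), midgut 1 of 10 (Amy-p) and blood cells 1 of 4 (eater). Malpighian tubule, antenna, testis, accessory gland and female markers had 0 by edgeR. For the haplogroup, 2 of 6 eye markers (ninaE and ninaC) and 1 each of the midgut (Jon25Bi), accessory gland (Acp33A) and female markers (Yp1) were called. The summed female markers reached at most 27.2 CPM in any library.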

How the data were processed

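Polyadenylated RNA of 72 pools was made into 3' tag libraries (QuantSeq 3' mRNA-Seq FWD), per the labels' protocols. The submitters' processing notes name HTSeq 0.11.0, STAR 2.6, Trimmomatic 0.36, FastQC 0.11.5 and DESeq2; for genome build and strandedness of counting, no source used here gives a value. The deposited raw counts per gene were used, and the authors' normalized table was not. Reads in no gene (2.27% to 6.50% of a library), in more than 1 gene (2.39% to 3.24%) or aligned to several places (9.68% to 35.5%) stood apart in the deposited count files and were left out. Coordinates are those of Ensembl release 115 (BDGP6.54).

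Counts were fitted with edgeR 4.0.16 in R 4.3.3 (TMM scaling, filterByExpr over the 36 combinations, quasi-likelihood fit of haplogroup, Y haplotype, their interaction and batch, 35 residual degrees of freedom), after the code was tested on simulated data. Each haplotype was also set against the mean of the other 5. The p-values were adjusted by the Benjamini-Hochberg method over 12470 genes, for each F test and each contrast by itself. The ± beside a log2 difference is a standard error computed from its F value. DESeq2 1.42.0 and limma-voom (limma 3.58.1), other filters, models and library sets were alternatives. The fit of batch 1 alone was additive, so it differed from the main fit in its model as well as its libraries. Correlations used log2 CPM with a prior count of 2. Members given by group were those called, the 3 with the highest mean and the 3 with the largest SD of log2 CPM in each family. The members, the 8 lists of pathway genes and the 9 lists of organ markers were chosen with earlier results of these data known.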

Additional observations from a re-analysis of the deposited data

How the results depend on the processing

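For the Y haplotype F test the Gst count of 1 became 9 with DESeq2, 2 with its size factors, 3 with no filter, 5 in the additive model, 6 with the replicate block, 4 without the 6 libraries of high multiple alignment and 8 in the additive model without them, an alternative chosen after seeing the data. The Ugt count of 1 became 4 with DESeq2 and 2 with the replicate block. It was also 2 in the additive model, with or without the 6 libraries. The fit of batch 1 alone was additive too and left both counts at 1. Over all genes the Y count of 517 became 875 with DESeq2, 521 with its size factors and 487 with no filter. It became 742 in the additive model and 929 with the replicate block. Without the 6 libraries it became 616, and 943 in the additive model without them. For the haplogroup F test the Gst count of 0 became 1 with DESeq2 and in the additive model, with or without the 6 libraries. It became 2 with no batch term and with the replicate block. The Ugt count of 0 became 2 with DESeq2 and in the additive model, 1 with no batch term and in batch 1 alone, and 4 with the replicate block. In B38 the Gst count of 0 became 1 with DESeq2, limma-voom and the additive model, 2 with no batch term and 5 with the replicate block, and the Ugt count of 4 became 7 with the replicate block and 0 in both fits without the 6 libraries. In ZH23 the Gst count of 0 became 1 with DESeq2, its size factors, batch 1 alone, the replicate block and both fits without the 6 libraries, and 2 in the additive model; the Ugt count of 2 became 1 with no batch term. In B11 the Gst count of 2 became 0 in batch 1 alone and 4 in the additive model without the 6 libraries, and the Ugt count of 1 became 0 in batch 1 alone. In the other 9 contrasts the Gst count of 0 became 2 with DESeq2 and in the additive model without the 6 libraries and 1 with no batch term and the replicate block, and the Ugt count of 0 became 2 with DESeq2. Over all genes the haplogroup count of 254 became 652 with DESeq2, 620 in the additive model and 601 with no batch term. It became 1639 with the replicate block, 219 in batch 1 alone and 209 in the additive model without the 6 libraries. The B38 counts of 854 higher and 359 lower became 1959 and 1306 with the replicate block. They became 923 and 526 with DESeq2 and 552 and 479 with limma-voom. In the additive model they became 1088 and 499, and with no batch term 643 and 277. They became 29 and 21 without the 6 libraries and 62 and 11 in the additive model without them. In B11 the 243 higher and 64 lower became 33 and 1 in batch 1 alone and 463 and 156 in the additive model without the 6 libraries. In ZH23 the 145 higher and 24 lower became 120 and 17 with no batch term. They became 173 and 35 with DESeq2, 156 and 21 with its size factors and 151 and 29 in the additive model. In batch 1 alone they became 186 and 43, and with the replicate block 183 and 39. Without the 6 libraries they became 197 and 33, and 228 and 42 in the additive model without them. Among the other 9 contrasts the largest counts over all genes were 295 higher and 73 lower with the replicate block, both in ZW139. In the additive model without the 6 libraries they were 106 and 34, both in ZW139. With no batch term they were 113 and 26, both in I02. The cause of these changes was not tested. Leaving out 1 library at a time gave 0 to 4 Gst and 1 to 2 Ugt members for the Y, 0 to 1 and 0 to 4 for the haplogroup, 0 and 0 for the interaction, 0 to 5 and 1 to 6 in B38, 0 to 3 and 0 to 1 in B11, and 0 to 2 and 1 to 2 in ZH23. These refits were not run for the other 9 contrasts, nor the interaction in additive fits. Their counts over all genes are not given here, so the ranges have no background beside them. No named member's log2 difference changed sign among those called, while the median Gst difference in B38 changed from -0.04 to 0.0027 and 0.05 in the fits without the 6 libraries. The main fit did not pair libraries by replicate number. Of 630 pairs of combinations, 314 had correlated deviations above 0.1 (median r = 0.0977, lowest -0.580, highest 0.743), so an effect shared by libraries of 1 replicate number may remain. Members near 10 counts per library, such as GstD4, GstE1 and Ugt304A1, are limited by depth.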
